A study of Mus musculus with 2 samples.

Results

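The cyclins, cyclin-dependent kinases (CDKs), CDK inhibitors and E2F and Rb family genes, with the Cdc25 phosphatases and Wee1, were examined in embryonic mouse heart. The 39 members were taken by gene symbol, and all 39 were found among the 43346 Ensembl genes of the files. There was 1 group, healthy heart tissue of strain B6NCrl at embryonic day 15.5 with both sexes mixed, and no genotype or treatment was compared. It was sampled by 2 libraries, replicate 1 from a pool of 78 embryos and replicate 2 from a pool of 62 embryos. Libraries were made from 10 ng of mirVana-extracted RNA longer than 200 nt with spike-in RNA added. The spread between libraries is therefore a spread between pools, and the smallest p that an exact sign-flip test allows with 2 libraries is 0.5, so values are described without a test.

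Progress through the cell cycle is driven by CDKs, which are active only when bound to a cyclin. D-type cyclins with Cdk4 or Cdk6, and then cyclin E with Cdk2, phosphorylate the pocket proteins (Rb1, Rbl1 and Rbl2) and release E2F factors, which control genes of DNA replication, while cyclin A and cyclin B with Cdk1 carry the cell through G2 and mitosis. Inhibitors of the Cip/Kip and INK4 families hold these kinases back, and in heart muscle the cycle is known to slow towards birth and to be largely shut down in the adult.

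Total expected counts, the deposited estimates of reads per gene, were 41883313 in replicate 1 and 39697992 in replicate 2. Spike-in RNA took 1.58% of the total in replicate 1 and 3.12% in replicate 2. All 12 cardiomyocyte markers, such as Tnnt2 and Myh7, were at 1 TPM (a level per length, scaled to the same total in each library) or more in both libraries, summing to 31271 TPM in replicate 1 and 26889 TPM in replicate 2. The 10 erythroid markers, led by globins, summed to 122268 and 118050 TPM in the same order of libraries. Markers of other organs were higher in replicate 2. The 10 thymus markers summed to 16.2 TPM in replicate 1 and 168 TPM in replicate 2, the 9 liver markers to 59.2 and 260 TPM, the 9 lung epithelium markers to 133 and 336 TPM, and the 9 neural markers to 14.4 and 65.8 TPM. No gene of these lists was at 0 in either library. In whole tissue, fewer cells of a type and less RNA per cell cannot be told apart, and the cell types that carried the members' transcripts were not resolved.

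Most of the machinery was transcribed. At 1 TPM or more in both libraries stood 36 of 39 members, where 58.2% of 21474 protein-coding genes reached that level. At 10 TPM or more stood 32 members, and 7 were at 100 TPM or more: Cdk4, Ccnd3, Cdk1, Ccnb1, Ccna2, Ccnb2 and Ccng1. The shares of all protein-coding genes at these higher levels were not counted. By mean TPM, the lowest of the 32, E2f7, ranked 7238 among the 21474 genes, and the lowest of the 7, Ccng1, ranked 1159. The median of the members' mean TPM was 25.9, against 15.8 for detected protein-coding genes and 3.62 for all protein-coding genes. The 3 members below 1 TPM in at least 1 library were Cdkn2b, Ccna1 and Cdkn2a. When the members were ordered by mean TPM, the values of both libraries lay above those of the next member at 13 of 38 steps. Those steps were mostly at the 2 ends. Between Ccnd1 at rank 12 and Rbl2 at rank 25, no pair of neighbours differed beyond the spread of the 2 libraries.

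**Figure D1:**
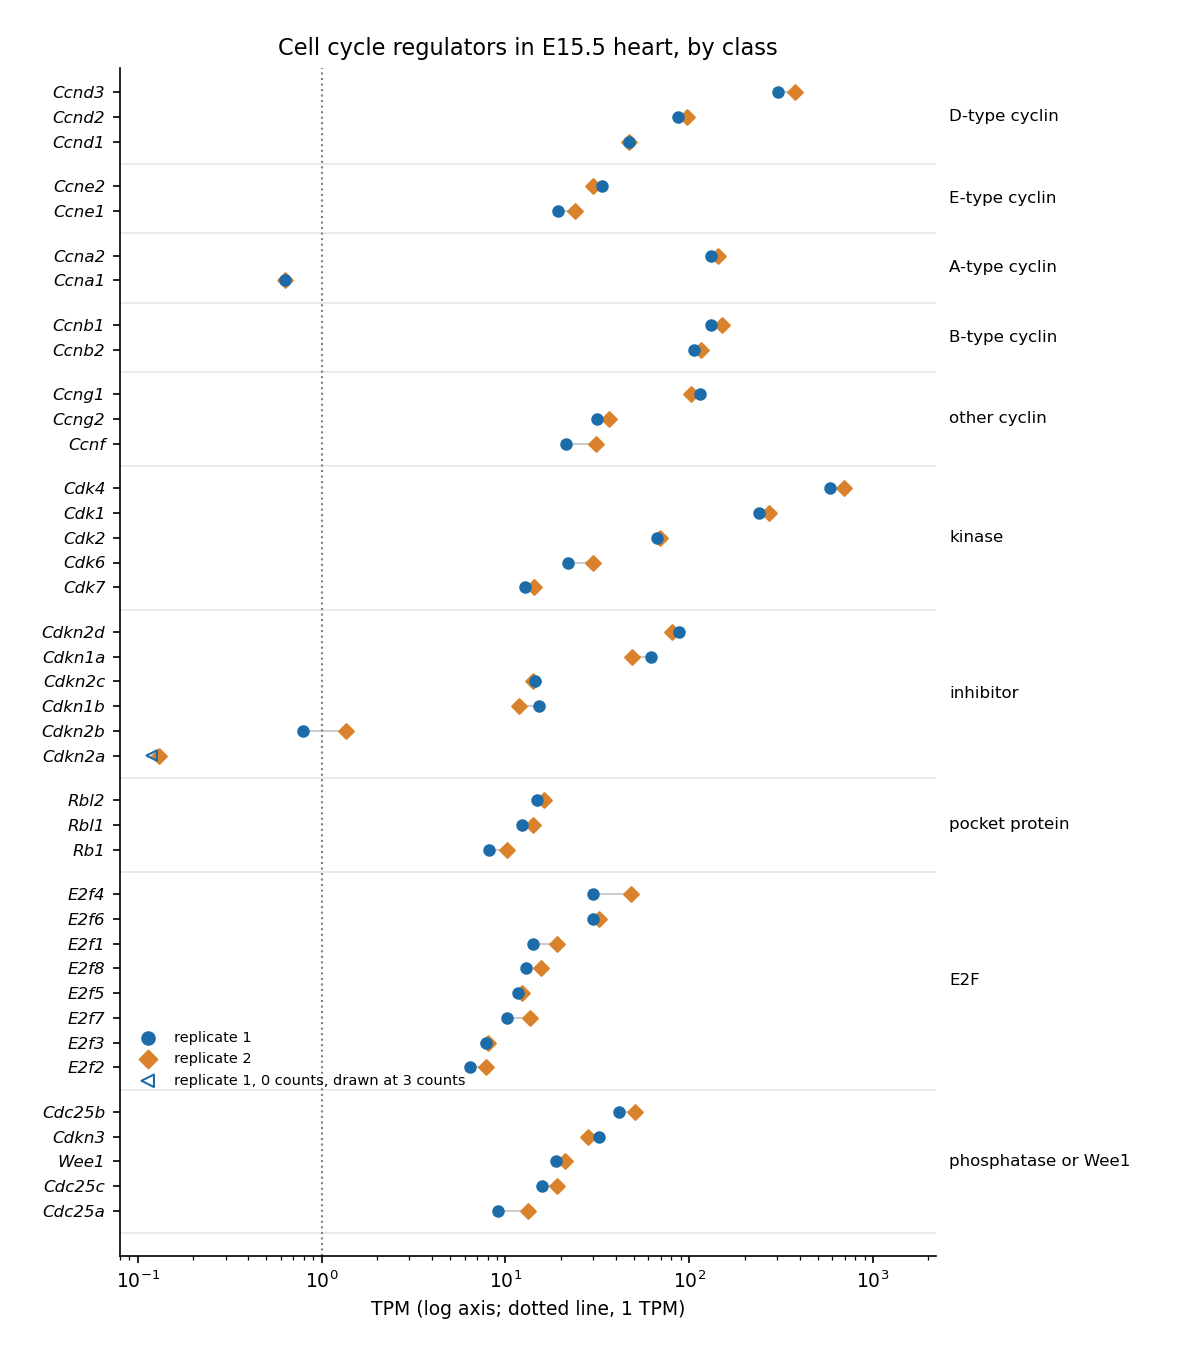
TPM of each member (log axis) in replicate 1 (circles) and replicate 2 (diamonds), grouped by class and sorted by mean within it; the open triangle is a count of 0 drawn at the level of 3 counts. Over all transcripts Cdk4 is highest at 581 and 696 TPM (on protein-coding ones Ccnd3 is), and only Cdkn2b, Ccna1 and Cdkn2a reach below 1 TPM.

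The D-type cyclins, which link growth signals to Cdk4 and Cdk6, summed to 439 TPM in replicate 1 and 519 TPM in replicate 2. Ccnd3 supplied most of it. Ccnd3 (ENSMUSG00000034165, mm10 chr17:47505051-47599691, plus strand) stood at 305 TPM in replicate 1 and 375 TPM in replicate 2, which was 69.5% and 72.2% of the D-type sum. Ccnd2 (ENSMUSG00000000184, chr6:127125162-127152193, minus strand) had 86.8 TPM in replicate 1 and 97.7 TPM in replicate 2. Ccnd1 (ENSMUSG00000070348, chr7:144929931-144939925, minus strand) had 47.0 TPM in both libraries. The 3 genes did not overlap in level. Taken within each library as log2((TPM + 0.1)/(TPM + 0.1)), Ccnd2 over Ccnd3 was -1.88 ± 0.09 and Ccnd2 over Ccnd1 was 0.97 ± 0.12 (SD, n = 2 libraries).

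The gap to Ccnd1 depended on which transcripts were counted. Only 43.6% of the Ccnd1 TPM in replicate 1 and 51.1% in replicate 2 lay in its protein-coding transcript, at 20.5 and 24.0 TPM. The rest lay in Ccnd1-202, a retained-intron transcript of 470 bases that took 319 of 2742 estimated reads in replicate 1 and 247 of 2785 in replicate 2. A short transcript turns few reads into many TPM, because TPM divides by length. With protein-coding transcripts alone, Ccnd2 over Ccnd1 was 2.05 ± 0.04 on the log2 scale, while Ccnd2 over Ccnd3 was -1.86 ± 0.09. Ccnd3 then held 73.7% of the D-type sum in replicate 1 and 75.3% in replicate 2, and Ccnd1 5.02% and 4.89%.

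Cdk4, the kinase partner of the D-type cyclins, was the most abundant member over all transcripts, but was below Ccnd3 on protein-coding ones. Cdk4 (ENSMUSG00000006728, chr10:127063534-127067920, plus strand) had 581 TPM in replicate 1 and 696 TPM in replicate 2, rank 170 among 21474 protein-coding genes by mean TPM. Its relative Cdk6 (ENSMUSG00000040274, chr5:3341485-3531008, plus strand) had 22.0 TPM in replicate 1 and 29.8 TPM in replicate 2. Cdk4 over Cdk6 was 4.63 ± 0.13 on the log2 scale (SD, n = 2), a 24.8-fold ratio, and Cdk4 made up 96.4% and 95.9% of the sum of both kinases. Here too the transcripts mattered more than the spread between libraries. Protein-coding transcripts held 31.8% of the Cdk4 TPM in replicate 1 and 37.0% in replicate 2, or 185 and 258 TPM, where Ccnd3 had 301 and 370 TPM. On those alone Cdk4 over Cdk6 was 3.09 ± 0.03, an 8.5-fold ratio. Cdk4 was still the higher gene, at 89.4% of the sum of both kinases in replicate 1 and 89.6% in replicate 2. The main Cdk6 model in the files, Cdk6-202, is 3735 bases long, whereas GENCODE M21 gives the same transcript 11525 bases. Reads from the added sequence lay outside that model, and whether another Cdk6 model covers it was not checked.

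Some sequences of Cdk4, Ccnd1 and Cdk1 lie in a retained-intron transcript and in no coding one, and they are short. They are shown as the bases by which these abundant models extend beyond the coding ones. Capitals mark the bases that lie in no protein-coding transcript of the gene, and lower case marks 20 adjoining bases shared with one, on mm10 with GENCODE M21 models.
Cdk4-209 (chr10:127066076-127066120, plus strand): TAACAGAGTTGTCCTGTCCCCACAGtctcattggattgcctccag
Ccnd1-202 (chr7:144938083-144938197, minus strand): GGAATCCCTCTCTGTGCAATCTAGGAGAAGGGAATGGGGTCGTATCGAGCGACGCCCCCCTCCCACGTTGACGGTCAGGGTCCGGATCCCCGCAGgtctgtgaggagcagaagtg
Cdk1-203 (chr10:69342691-69342729, minus strand): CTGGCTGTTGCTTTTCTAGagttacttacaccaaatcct
Cdk1-204 (chr10:69345005-69345080, minus strand): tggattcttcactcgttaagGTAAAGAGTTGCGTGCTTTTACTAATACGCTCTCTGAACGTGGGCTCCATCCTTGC

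Cdk4-209 is 468 bases long, and 25 of them lie outside the coding transcripts. It was given 39.9% of the Cdk4 TPM in replicate 1 and 36.8% in replicate 2, from 2777 and 2735 estimated reads. Cdk4-208, annotated for nonsense-mediated decay, took 17.2% and 17.5%, with no base of its own. The coding transcripts Cdk4-205 and Cdk4-201 took 14.3% and 13.9% in replicate 1, and 18.4% and 15.8% in replicate 2. Of the 470 bases of Ccnd1-202, 95 lie outside the coding transcript. Reads from shared bases were divided between models by the authors' estimation, so the part of a retained-intron level that came from spliced RNA was not tested.

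**Figure D2:**
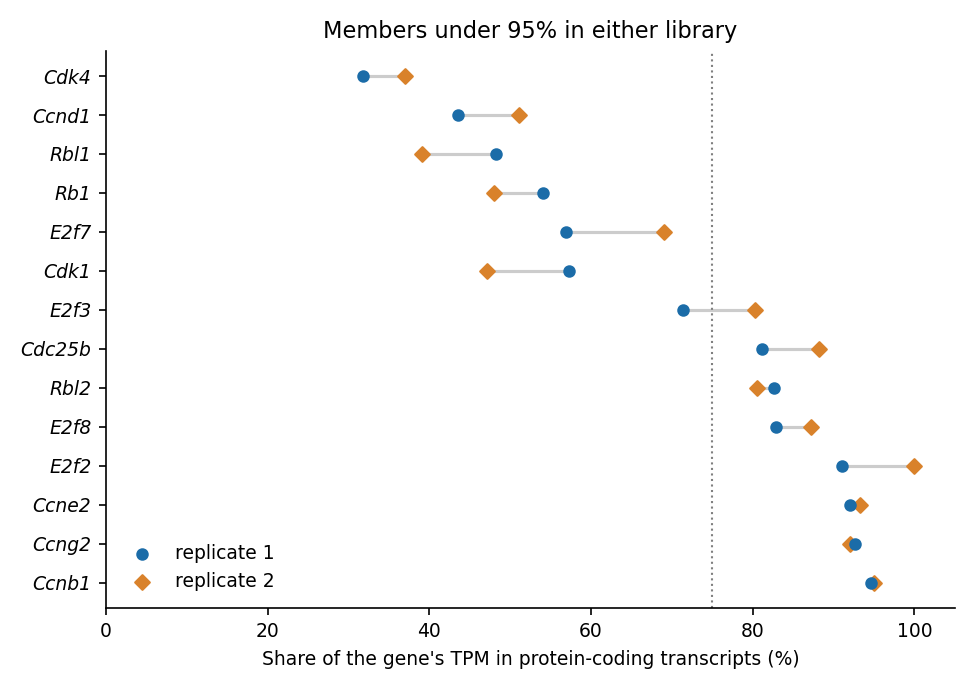
Share of each gene's TPM in protein-coding transcripts (percent) in replicate 1 (circles) and replicate 2 (diamonds), for the detected members under 95% in either library; the dotted line is 75%. Cdk4 is lowest in both libraries, at 31.8% and 37.0%, and E2f3 lies on both sides of the line.

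Among detected members, 6 had under 75% of their TPM in protein-coding transcripts in both libraries: Ccnd1, Cdk1, Cdk4, Rb1, Rbl1 and E2f7. The share of detected protein-coding genes under that limit was 17.8%, and 6 of 36 members is close to it. At 95% or more in both libraries stood 22 members, among them Ccnd2, Ccnd3, Cdk2 and Cdk6. The share of all detected genes at that limit was not counted, so the 22 are not read as a trait of the members.

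Cyclins E1 and E2, which activate Cdk2 at the entry into S phase, were both detected. Ccne1 had 19.4 TPM in replicate 1 and 23.9 TPM in replicate 2. Ccne2 had 33.4 TPM in replicate 1 and 29.8 TPM in replicate 2, above Ccne1 in both. Ccne1 over Ccne2 was -0.55 ± 0.33 on the log2 scale (SD, n = 2), and the 2 libraries gave -0.78 and -0.32. Cdk2 itself, the partner of cyclins E and A, had 66.7 TPM in replicate 1 and 68.9 TPM in replicate 2. Its 2 coding transcripts were both in use, with Cdk2-201 at 73.2% and 63.9% of the Cdk2 TPM and Cdk2-202 at 26.8% and 36.1%.

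Cyclin A came from Ccna2, the somatic gene, and hardly from Ccna1, known for its role in the male germ line. Ccna2 had 132 TPM in replicate 1 and 143 TPM in replicate 2. Ccna1 had 0.63 TPM in both libraries, from 30 and 27 reads. Ccna2 over Ccna1 was 7.56 ± 0.08 on the log2 scale, on which the added 0.1 TPM understates the ratio. The mitotic cyclins Ccnb1 and Ccnb2 were both above 100 TPM. Ccnb1 had 132 TPM in replicate 1 and 151 TPM in replicate 2, and Ccnb2 had 106 and 116 TPM. Ccnb1 and Ccna2 were not apart in the order, whereas Ccnb2 was below both.

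Cdk1 (ENSMUSG00000019942, chr10:69335146-69352938, minus strand), the kinase of mitotic entry, had 238 TPM in replicate 1 and 273 TPM in replicate 2. Over all transcripts Cdk1 exceeded Cdk2 by 1.91 ± 0.11 on the log2 scale (SD, n = 2), a 3.76-fold ratio. Protein-coding transcripts held 57.3% of its TPM in replicate 1 and 47.2% in replicate 2, or 137 and 129 TPM. Cdk1-203 held 20.97% and 24.06%, and Cdk1-204 held 20.88% and 27.49%. These are the retained-intron transcripts shown above, of 378 and 475 bases, with 19 and 56 bases outside the coding transcripts. On protein-coding transcripts alone Cdk1 over Cdk2 was 0.97 ± 0.09, a 1.96-fold ratio. Those Cdk1 values overlapped the coding values of Ccna2, at 131 TPM in replicate 1 and 140 TPM in replicate 2.

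Promoter sequence was read for the mitotic genes, whose transcription is known to depend on CCAAT boxes, bound by NF-Y, and on a cell-cycle homology element bound through the MuvB complex. The 3 promoters below belong to Cdk1 and its B-type cyclins, which all stood above 100 TPM. They are the 200 bases before the RefSeq start (GRCm38.p6). Capitals mark TTTGAA (the letters of the homology element), TTTNNCGC (those of an E2F motif) and CCAAT, each searched on both strands.
Cdk1 (chr10:69352913-69353112, minus strand): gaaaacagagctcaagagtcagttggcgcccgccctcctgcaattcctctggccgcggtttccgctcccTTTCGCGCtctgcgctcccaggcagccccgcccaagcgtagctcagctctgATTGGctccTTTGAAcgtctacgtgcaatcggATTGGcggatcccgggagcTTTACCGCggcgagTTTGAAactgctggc
Ccnb1 (chr13:100786487-100786686, minus strand): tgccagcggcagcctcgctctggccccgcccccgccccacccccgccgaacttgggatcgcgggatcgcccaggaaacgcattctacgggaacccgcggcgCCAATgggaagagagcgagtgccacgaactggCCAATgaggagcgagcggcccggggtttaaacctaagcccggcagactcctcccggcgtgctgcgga
Ccnb2 (chr9:70421555-70421754, minus strand): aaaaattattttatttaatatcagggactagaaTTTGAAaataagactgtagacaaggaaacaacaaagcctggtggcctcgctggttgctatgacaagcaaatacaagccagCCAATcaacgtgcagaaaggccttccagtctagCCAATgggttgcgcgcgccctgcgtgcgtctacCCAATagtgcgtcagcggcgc

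RefSeq promoters were matched for 30 of 39 members, with 36 start sites. In the 250 bases before the start, CCAAT was found in 18 of 36 promoters (50%, against 33.8% of all 32851 promoters), TTTGAA in 9 (25%, against 16%) and TTTNNCGC in 9 (25%, against 4.28%). CCAAT together with TTTGAA was found in 7 (19.4%, against 5.55%). The 7 were those of Ccnb2, Ccnf, Cdk1, Cdkn3, E2f3, E2f8 and an internal start of E2f2. The E2F motif was found before starts of Cdc25a, Cdk1, Cdk2, Cdk6, Cdkn2a, E2f3, E2f7 and Rbl1. In the Cdk1 promoter the E2F motif occurred at 131 and 29 bases before the start, TTTGAA at 71 and 15, and CCAAT at 208, 80 and 48. Such matches describe letters in a window and are not binding sites.

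Among cyclins G1, G2 and F, G1 stood highest. Ccng1, a target of p53 and among the genes at 100 TPM or more, had 115 TPM in replicate 1 and 102 TPM in replicate 2. Ccng2, its relative found in arrested cells, had 31.4 TPM in replicate 1 and 36.8 TPM in replicate 2. Its coding transcripts Ccng2-201 and Ccng2-202 held 48.6% and 44.0% in replicate 1, and 41.0% and 51.0% in replicate 2. Ccnf, the F-box cyclin that directs proteins to degradation, had 21.5 TPM in replicate 1 and 31.1 TPM in replicate 2. On protein-coding transcripts Ccnf overlapped Ccng2, which then had 29.1 TPM in replicate 1 and 33.8 TPM in replicate 2. Cdk7, the CDK-activating kinase of TFIIH, had 12.7 TPM in replicate 1 and 14.2 TPM in replicate 2. The Cdk7 model in the files is 7595 bases long, against 1988 bases in GENCODE M21, and its TPM divides 3097 and 3098 reads by the longer length. Ccnf and Wee1 had shorter models than in M21, at 3099 against 4133 bases and 1941 against 3419 bases. Shorter too were models of other members, among them Cdkn1a-202 (748 against 922 bases), Cdkn1a-203 (857 against 1172) and E2f3-202 (216 against 389). The same held for Cdkn3-201 (773 against 917) and Ccnd2-201 (5701 against 6330). The levels given for these genes rest on the models in the files.

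Among the inhibitors, p19 (Cdkn2d) and p21 (Cdkn1a) were the most abundant members. Cdkn2d, an INK4 protein that binds Cdk4 and Cdk6, had 88.1 TPM in replicate 1 and 80.8 TPM in replicate 2. Cdkn1a, the p53-induced Cip/Kip inhibitor, had 61.8 TPM in replicate 1 and 49.0 TPM in replicate 2. Cdkn1b (p27) had 15.3 TPM in replicate 1 and 11.8 TPM in replicate 2, a level not apart from that of Cdkn2c (p18) at 14.5 and 14.1 TPM. Cdkn1a exceeded Cdkn1b by 2.03 ± 0.02 and Cdkn2d exceeded Cdkn2c by 2.55 ± 0.06 on the log2 scale (SD, n = 2).

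The neighbouring INK4 genes Cdkn2b and Cdkn2a on chromosome 4 were the lowest of the inhibitors. Cdkn2b (p15) had 0.79 TPM in replicate 1 and 1.36 TPM in replicate 2, from 33 and 51 reads. Cdkn2a, which encodes p16 and, from another first exon, p19ARF, had 0 reads in replicate 1, which allows up to 3 reads or 0.119 TPM. In replicate 2 it had 3 reads, or 0.13 TPM, all assigned to Cdkn2a-202 and none to Cdkn2a-201. These floors cover counting error only. Both libraries were thus at or under 3 reads, and no fold is given.

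Summed, the Cip/Kip members had 77.0 TPM in replicate 1 and 60.8 TPM in replicate 2, and the INK4 members 103 and 96.4 TPM. Cip/Kip over INK4 was -0.54 ± 0.17 on the log2 scale, on all transcripts and on protein-coding transcripts alike. This balance turned with Cdkn1c (p57), the imprinted Cip/Kip inhibitor, which is no member. Cdkn1c had 205 TPM in replicate 1 and 283 TPM in replicate 2, more than all member inhibitors together at 180 and 157 TPM. With it the Cip/Kip sum was 282 TPM in replicate 1 and 344 TPM in replicate 2, and the log2 ratio to INK4 was 1.64. Cdkn1c exceeded Cdkn1a by 2.13 ± 0.56 on the log2 scale.

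The pocket proteins stood in the order Rbl2, Rbl1 and Rb1 over all transcripts, with no overlap between the libraries' values. Rbl2 (p130) had 14.8 TPM in replicate 1 and 16.2 TPM in replicate 2, Rbl1 (p107) had 12.3 and 14.1 TPM, and Rb1 had 8.09 and 10.2 TPM. On protein-coding transcripts the order of the lower 2 did not change but their distance from Rbl2 grew. Rbl2 then had 12.2 TPM in replicate 1 and 13.0 TPM in replicate 2, Rbl1 5.92 and 5.50 TPM, and Rb1 4.38 and 4.91 TPM. On the log2 scale, Rbl2 over Rb1 was 0.76 ± 0.14 on all transcripts and 1.43 ± 0.05 on coding ones. Rbl2 over Rbl1 was 0.23 ± 0.04 and 1.13 ± 0.14 on the same scale. The retained-intron transcript Rbl1-202, of 2383 bases with 556 outside the coding transcript, held 47.6% and 47.9% of the Rbl1 TPM.

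Much of the Rb1 value was assigned to a short transcript within another gene's exons. Rb1-206, a processed transcript of 408 bases, took 37.5% of the Rb1 TPM in replicate 1 and 42.1% in replicate 2, from 30.5 and 38.6 of 687 and 705 estimated reads. All 408 bases overlap exons of Lpar6, a lysophosphatidic acid receptor gene that lies in an Rb1 intron on the opposite strand. Lpar6 had 7.29 TPM in replicate 1 and 7.20 TPM in replicate 2. The strand setting of the counting is unknown here, and without strand the reads of Rb1-206 and of Lpar6 cannot be told apart.

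Among the E2Fs, the repressors held 77.0% of the summed TPM in replicate 1 and 77.8% in replicate 2. E2f4, a repressor that pairs with Rbl1 and Rbl2, had 30.0 TPM in replicate 1 and 48.1 TPM in replicate 2. E2f6, which represses without binding pocket proteins, had 29.9 TPM in replicate 1 and 32.5 TPM in replicate 2. E2f5, also a pocket protein partner, had 11.7 TPM in replicate 1 and 12.4 TPM in replicate 2. The atypical repressors E2f8 and E2f7, which bind DNA without a DP partner, had 12.9 and 10.2 TPM in replicate 1, and 15.6 and 13.6 TPM in replicate 2. E2f4 and E2f6 were not apart, since the lower E2f4 value lay within the range of E2f6.

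The activators E2f1, E2f2 and E2f3, which are held by Rb1, summed to less than the repressors, although E2f1 exceeded E2f5, E2f7 and E2f8 in each library. E2f1 had 14.1 TPM in replicate 1 and 19.0 TPM in replicate 2, and exceeded E2f2, at 6.41 and 7.86 TPM, by 1.19 ± 0.10 on the log2 scale. E2f3 had 7.84 TPM in replicate 1 and 8.04 TPM in replicate 2. Of these values 28.6% and 19.6% came from E2f3-202, a non-coding transcript with 8.53 and 5.35 estimated reads. The activators summed to 28.3 TPM in replicate 1 and 34.9 TPM in replicate 2, and the 5 repressors to 94.7 and 122 TPM. Activators over repressors were -1.77 ± 0.05 on the log2 scale on all transcripts and -1.79 ± 0.01 on coding ones (SD, n = 2). The balance followed the classes used. Against E2f4 and E2f5 alone the log2 ratio was -0.67, and against the atypical E2f7 and E2f8 alone it was 0.27, with activators higher.

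**Figure D3:**
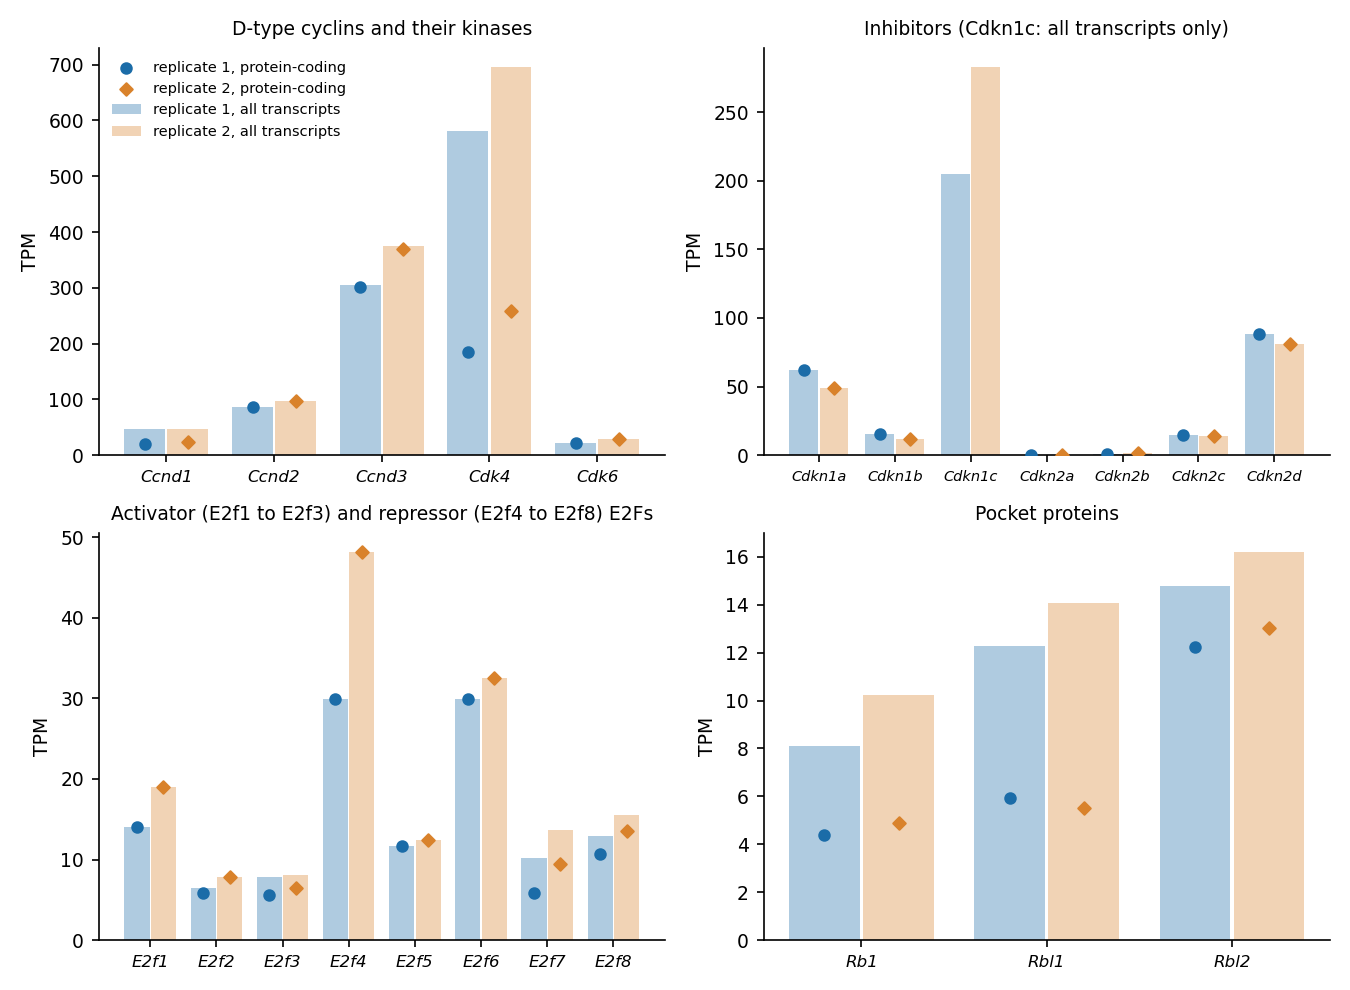
TPM in replicate 1 (blue) and replicate 2 (orange) for the D-type cyclins with Cdk4 and Cdk6, the inhibitors, the E2Fs and the pocket proteins, with bars for all transcripts and points for protein-coding ones. Points fall well below the bars for Cdk4, Ccnd1, Rb1, Rbl1 and E2f7, and Cdkn1c, at 205 and 283 TPM, stands above the other inhibitors.

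The phosphatases that remove the inhibitory phosphates from CDKs differed in level. Cdc25b had 41.3 TPM in replicate 1 and 50.5 TPM in replicate 2, Cdc25c 15.8 and 19.0 TPM, and Cdc25a 9.11 and 13.2 TPM. Cdc25b exceeded Cdc25a by 2.05 ± 0.17 on the log2 scale, and by 1.81 ± 0.08 on coding transcripts. Cdc25b-202 was its main transcript, with 52.2% and 62.2% of the Cdc25b TPM. Wee1, the kinase that opposes them by phosphorylating Cdk1, had 18.9 TPM in replicate 1 and 21.2 TPM in replicate 2, not apart from Cdc25c. Cdkn3, a phosphatase that acts on the activating phosphate of CDKs, had 32.2 TPM in replicate 1 and 28.1 TPM in replicate 2.

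The 40 other genes of the pathway were likewise present, with 40 of 40 at 1 TPM or more in both libraries and a median mean TPM of 29.1. By mean TPM the highest after Cdkn1c were the Cdk-binding subunit Cks1b, at 220 TPM in replicate 1 and 239 TPM in replicate 2, the histone chaperone Rbbp4, at 227 and 215 TPM, and Cks2, a relative of Cks1b, at 195 and 182 TPM. In replicate 1, Rbbp4 and Cks1b were both above Cdkn1c. The E2F partner Tfdp1 had 57.8 TPM in replicate 1 and 77.1 TPM in replicate 2, and Tfdp2 30.9 and 26.8 TPM. Of the other subunits of the CDK-activating kinase, Ccnh had 47.4 and 46.9 TPM and Mnat1 14.6 and 16.5 TPM. The proliferation markers Top2a and Mki67 had 124 and 16.7 TPM in replicate 1, and 131 and 20.5 TPM in replicate 2. Pkmyt1, a relative of Wee1, had 16.7 TPM in replicate 1 and 27.8 TPM in replicate 2.

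The libraries were compared on counts scaled by TMM (trimmed mean of M-values), and 38 members had 10 or more counts in both libraries. Of these, 0 were over 1.5-fold apart, where 16.0% of 17054 genes with such counts were, 4.40% higher and 11.6% lower in replicate 1. Of the 36 members with 100 or more counts in both, 0 were that far apart, where 6.80% of 12625 genes were. The median absolute log2 ratio was 0.15 for the members and 0.22 for all genes. The median log2 ratio of replicate 1 over replicate 2 was 0.04 for the members and 0 for all genes, with 14 of 38 members below 0, where 50.4% of all genes were below 0. Both counts depended on the scaling. By spike-ins, which moved the median of all genes to 0.85, 34 of 38 members were over 1.5-fold apart, where 79.9% of all genes were, and 0 members were below 0 (7.44% of all genes). By total counts (median of all genes -0.16), 2 members were over 1.5-fold apart (17.8% of all genes) and 28 were below 0 (69.7%). In deposited TPM (median -0.21), 2 members were over 1.5-fold apart (20.0% of all genes) and 30 were below 0 (74.6%). The 2 members were Cdkn2b and E2f4 in both settings. With no filter on low counts and 0.5 added to each, Cdkn2a alone was over 1.5-fold apart by TMM, where 35.6% of 25013 genes with a count were.

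**Figure D4:**
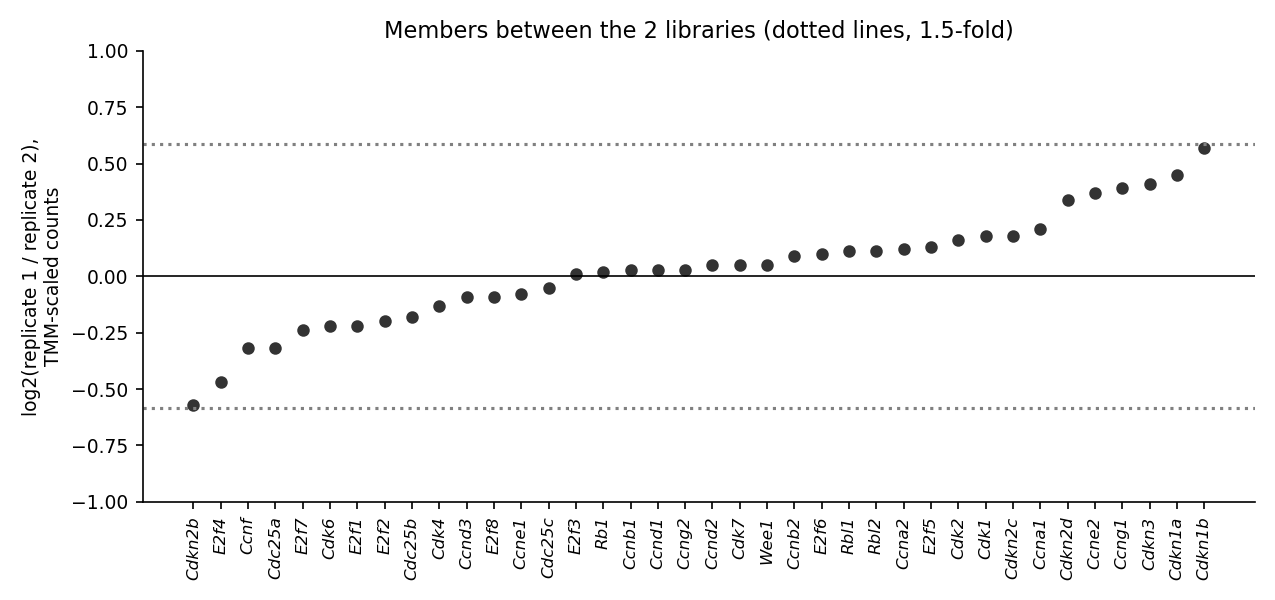
Log2 ratio of replicate 1 over replicate 2 (TMM-scaled counts) for the 38 members with 10 or more counts in both libraries, sorted; dotted lines mark 1.5-fold. The points run from -0.57 (Cdkn2b) to 0.57 (Cdkn1b), all inside the lines, while by spike-in scaling all 38 lie above 0 and 34 are over 1.5-fold apart.

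The TMM-scaled range ended in 2 inhibitors, Cdkn1b and Cdkn2b. Cdkn1b had 1369 reads in replicate 1 and 960 reads in replicate 2, a log2 ratio of 0.57. Cdkn1a stood at 0.45, Cdkn3 at 0.41, Ccng1 at 0.39, Ccne2 at 0.37 and Cdkn2d at 0.34, while Cdkn2c was at 0.18. At the other end were Cdkn2b, at -0.57 from 33 and 51 reads, and E2f4, with 1842 reads in replicate 1 and 2643 reads in replicate 2, at -0.47. Ccnf and Cdc25a were both at -0.32. Cdk1 was at 0.18, and its cyclins Ccna2, Ccnb2 and Ccnb1 were at 0.12, 0.09 and 0.03. Of the genes that act on Cdk1 phosphates, Cdc25b was at -0.18, Cdc25c at -0.05 and Wee1 at 0.05, but Pkmyt1 was at -0.52. The median absolute log2 ratio of all genes was 0.22. In size Cdk1, these cyclins, Cdc25b, Cdc25c and Wee1 lie under it, and their signs depend on the scaling. Cdc25a and Pkmyt1 lie above it in size. On the same scale the cardiomyocyte markers had a median of 0.42. The thymus, liver, lung epithelium and neural markers had medians of -3.27, -2.50, -1.37 and -2.22. Only markers with 10 or more counts in both libraries entered, which were 6 of 10 for thymus and 7 of 9 for lung epithelium. The part of these cell types in the members' differences was not tested. Among the 40 other pathway genes, 0 were over 1.5-fold apart by TMM and the median log2 ratio was 0.01. The share of all genes that far apart was 16.0% with 10 or more counts in both libraries and 6.80% with 100 or more.

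Some member exons overlap a gene on the opposite strand, and strand use in the counting is not known. Among coding transcripts, Ccnd1-201 shares 1100 bases with LTO1, Cdk4-201 641 bases with Tspan31, Ccne2-202 609 bases with Ints8, Ccna2-201 510 bases with Exosc9, Rbl2-201 418 bases with Aktip and Ccnd3-205 359 bases with Bysl. Tspan31, the most abundant of these partners, had 78.2 TPM in replicate 1 and 92.2 TPM in replicate 2. Genes with a stretch of at least 200 bases at 90% identity or more were in the files for 4 members: Ccnb1, Ccnd3, Cdk6 and Cdk7. The processed pseudogene Ccnb1-ps, 99.2% identical over 1287 bases, had 0.97 TPM in replicate 1 and 1.15 TPM in replicate 2. Ccnd3-ps had 0.28 and 0.44 TPM. For Cdk7 the match was to the pseudogene Gm7496, at 0.22 and 0.18 TPM, and to part of the protein-coding gene Suco, 90.3% identical over 619 bases, at 9.57 and 11.0 TPM. For Cdk6 it was to Gm16505, at 0 counts in both libraries. The division of reads between such stretches is uncertain.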

How the data were processed

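Both libraries were quantified by the authors on mm10 with GENCODE M4, per the file headers. The deposited expected counts are the authors' unscaled read estimates for genes and transcripts, and the deposited TPM divide them by effective length. The deposited percent gives each transcript's share of its gene's TPM. Which aligner, quantifier, versions and strand setting were used is not given in the sources. Per the labels the molecule was total RNA, while the linked SMARTer Ultra Low kit primes with oligo(dT).

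Symbols, biotypes and positions came from GENCODE M21 on the same build, matched by identifier for 42462 of 43346 genes. Spike-ins (97) and 26248 short features stayed out of library sizes. At an effective length of 1 kilobase, 1 read gave 0.0308 TPM in replicate 1 and 0.0345 in replicate 2, and a count of 0 allows up to 3 counts. Expected counts were rounded and scaled with edgeR 4.0.16 TMM in R 4.3.3. The scaling was tested on simulated data with as many genes set higher as lower. That setting differs from these libraries, where by TMM more genes were lower in replicate 1 than higher. DESeq2 1.42.0 size factors were an alternative, and tables were made with Python 3.11.15, pandas 2.3.3 and numpy 2.4.6. Neighbours in level were called apart where both values of the higher gene exceeded both of the lower. All 39 members are named. The members and lists were chosen with earlier results of these data known, and the alternative with protein-coding transcripts only was chosen after seeing the data.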

Additional observations from a re-analysis of the deposited data

How the results depend on the processing

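Over 57 alternatives of 8 results, 42 values were counted as unchanged and 15 were not. For ratios within a library, all given here as log2, the limit was the spread between replicates, and for counts it was 1.5 times. The median log2 ratio between the libraries has no such spread. Its value of -0.11 by total counts was counted as unchanged, although the sign changed. The balances between classes changed sign under 2 alternatives, with Cip/Kip over INK4 at 1.64 with Cdkn1c and activator over repressor E2F at 0.27 against E2f7 and E2f8 only, and against E2f4 and E2f5 only it was -0.67. On protein-coding transcripts only, Ccnd2 over Ccnd1 was 2.05 and Cdk4 over Cdk6 was 3.09. With expected counts without length normalization, Ccnd2 over Ccnd1 was 2.52, Ccnd2 over Ccnd3 -0.28, Cdk4 over Cdk6 2.54 and activator over repressor E2F -1.30. These differ from TPM by construction, since a longer gene gives more reads. The median log2 ratio of members between the libraries, 0.04 by TMM, also changed sign, to -0.11 by total counts and -0.18 in deposited TPM, and was 0.89 with spike-in counts. Members over 1.5-fold apart numbered 2 by total counts (17.8% of all genes), 34 by spike-in counts (79.9%) and 2 in deposited TPM (20.0%), against 0 by TMM (16.0%) and by DESeq2 size factors. With no filter on low counts it was 1, Cdkn2a at 0 and 3 reads, where 35.6% of genes were that far apart. Leaving out each replicate in turn gave ranges of 0.89 to 1.05 (Ccnd2 over Ccnd1), -1.94 to -1.81 (Ccnd2 over Ccnd3), 4.54 to 4.72 (Cdk4 over Cdk6), -0.66 to -0.42 (Cip/Kip over INK4), -1.80 to -1.74 (E2Fs) and 36 to 37 members at 1 TPM or more. Without a replicate each of these is the value of 1 library, with no test. For the ratios, such values could not leave the spread of the 2 libraries, so their count as unchanged was fixed in advance. No paired analysis was possible because there is 1 group. Depth limits the statements on Cdkn2a, Cdkn2b and Ccna1, which rest on 0 to 51 reads.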
